A study of Mus musculus with 12 samples.

Results

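The cells described here are the coelomic epithelial cells of wild-type (WT) fetal mouse gonads, the layer that covers the gonad and faces the body cavity. They were chosen by their own transcript counts in single-cell RNA sequencing libraries. A cell was a member when it had at least 1000 detected genes, at most 10% mitochondrial UMIs (unique molecular identifiers, each standing for 1 captured transcript), at least 2 UMIs of Upk3b, at least 2 UMIs of Lhx9, Krt19 and Aldh1a2 together, at most 1 UMI of Pdgfra, and fewer than 10 UMIs of the germ cell genes Dppa5a, Pou5f1, Ddx4 and Dazl together. There were 2810 members among 24227 gonadal somatic cells of the 4 WT libraries. The 4 libraries held 29974 cells within the same quality limits, of 83513 in the whole series. The series compared XX and XY gonads at E12 (embryonic day 12) from WT mice and from mice that lack the -KTS or the +KTS splice variant of WT1, with 2 libraries in each of 6 groups. Each WT library was made from both gonads of 1 embryo of mixed background, dissected free of the mesonephros and dissociated with trypsin. The WT groups carried no targeted allele and received no treatment. The KO libraries entered only the fits, through the choice of genes tested, the scaling and the estimate of the spread between libraries. Values for replicates 1 and 2 are given in that order, the XX libraries before the XY libraries.

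The coelomic epithelium is a mesothelium-like sheet that expresses keratins and uroplakins on its surface and rests on a basement membrane. Its cells divide and leave the sheet to enter the gonad, where they contribute to supporting cells (Sertoli cells in the testis, pre-granulosa cells in the ovary) and to interstitial cells. Upk3b encodes a uroplakin of the apical membrane of mesothelium, Krt19 a keratin of simple epithelia, Lhx9 a LIM homeobox factor needed for gonad formation, and Aldh1a2 a retinaldehyde dehydrogenase that makes retinoic acid.

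The WT libraries held between 116415082 and 133657163 UMIs over all barcodes. The members had a median of 14532.5 and 18595 UMIs per cell in the XX libraries and of 12615 and 13860 in the XY libraries, against 11655, 13847, 9923 and 12439.5 in the other somatic cells. Of 36992 WT barcodes, 132 barcode sequences occurred in more than 1 WT library. Levels are given as CPM, the usual depth-scaled count, which sets the UMIs of a gene against all UMIs summed over the cells of 1 kind in 1 library. Ratios between kinds of cells are on the log2 scale after adding 5 CPM to each level, which understates the change of low genes.

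All 4 marker genes were read in most or many members, and Krt19 least often. Upk3b (chr5:136038496-136046487 in GRCm38.p6, plus strand) stood at 308, 271, 295 and 273 CPM in the members and between 11.7 and 15.7 CPM in the other somatic cells. Lhx9 (chr1:138825186-138848577, minus strand) stood at 540 and 589 CPM in the XX members and 395 and 370 CPM in the XY members. Aldh1a2 (chr9:71215789-71296243, plus strand) stood at 223, 208, 189 and 223 CPM. Krt19 (chr11:100140810-100148665, minus strand) stood at 74.0 and 77.6 CPM in the XX members and 40.4 and 26.6 CPM in the XY members. The XX and XY values of Krt19 and of Lhx9 did not overlap, as was so for 45.4% of all genes tested below. The fit across all genes below held these genes too and its count of called genes includes Krt19, but since they selected the cells their p-values are not given or read as results. These are levels of the genes that selected the cells, so their height over the other somatic cells is not a finding.

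The members shared Lhx9 and Aldh1a2 more than Krt19. At least 1 UMI of Lhx9 was found in 96.9% to 98.6% of the members of a library, and at least 1 UMI of Aldh1a2 in 89.5% to 95%. Krt19 was found in 49.2% and 50.3% of the XX members and in 31.9% and 26% of the XY members. In the 1086 endothelial cells of the same libraries (at least 3 UMIs of Pecam1, Cdh5, Emcn and Esam together and no other excluded type), which should lack this keratin, it was found in 3.41%, 2.73%, 1.34% and 1.65%, at median depths of 16931.5, 17543, 14536 and 16824 UMIs. After every cell was thinned to 5000 UMIs, Krt19 was found in 23.4%, 26.5%, 14.9% and 10.7% of the members. Krt19 selected the cells, so these shares are a description. All of Lhx9, Krt19 and Aldh1a2 were read in 45.9%, 45.5%, 27.4% and 23.6% of the members. Just inside the threshold, members with exactly 2 Upk3b UMIs (19.5% to 24.4% of a library's members) had Krt19 at 63.8, 68.1, 40.6 and 24.4 CPM. Just outside it, cells with 1 Upk3b UMI that met every other limit had Krt19 at 44.2, 53.4, 27.9 and 17.3 CPM. Krt7, which the rule did not use, stepped from 78.0, 57.3, 87.0 and 49.1 CPM outside to 93.3, 87.0, 118 and 73.2 CPM inside, and stood at 23.5, 18.2, 19 and 17.8 CPM in cells with 0 Upk3b UMIs that met the other limits.

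Several other markers of the layer were also high in the members. The list of coelomic epithelium markers held 14 genes, 4 of them used by the rule. Of the others, the keratin Krt7 and Lrrn4, a leucine-rich repeat membrane protein known from mesothelium, were at least 2-fold higher in the members in all 4 libraries. Upk1b (another uroplakin), Bnc1 (basonuclin, a zinc finger factor of epithelia) and Muc16 (a surface mucin) were also at least 2-fold higher in each library but lay under 20 CPM in at least 1 of them. Krt8 was not: it stood at 56.1, 69.3, 39.7 and 42.7 CPM in the members and 73.0, 67.4, 54.9 and 54.9 CPM in the other somatic cells. Msln, the mesothelin gene, was read at 0.0833, 0, 0.367 and 0 CPM, and Wt1 at 253, 268, 191 and 257 CPM against 279, 286, 154 and 245 CPM in the other cells. Of the markers that the rule did not use, the label thus rested on Krt7 and Lrrn4 and, at lower levels, on Upk1b, Bnc1 and Muc16, while mesothelin was almost unread.

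Markers of endothelial, immune, erythroid and mesonephric duct cells were low, whereas the interstitial list was not. The endothelial list (5 genes) summed to 36.7, 54.5, 50.8 and 68.5 CPM in the members, most of it Kdr. In the other somatic cells it summed to 9.79, 15.7, 17.8 and 25.0 CPM, a median log2 ratio of 0.52. Those cells exclude any with at least 3 UMIs of Pecam1, Cdh5, Emcn and Esam together. In endothelial cells the sum was between 1354 and 2071 CPM, and the level in these cells is given below for many of the genes that differed. Free RNA can place a gene's reads in cells that do not express it, and its part in the members' levels was not tested. Its defining genes Pecam1 and Cdh5 stood at no more than 4.07 and 3.08 CPM in the members. The immune list (5 genes) summed to 0.25, 0.898, 6.31 and 1.02 CPM and the erythroid list (4 genes) to between 1.93 and 4.50 CPM. The mesonephric duct list (6 genes) summed to between 2.03 and 7.06 CPM. The interstitial list (13 genes, with Pdgfra limited by the rule) summed to 1194, 1063, 1903 and 1578 CPM in the members, above the 674, 819, 1157 and 756 CPM of the other somatic cells, with a median log2 ratio of 0.58 beside 0.02 over all genes. Its genes Tcf21, Dlk1, Col3a1 and Wnt5a were higher in the members of every library, while Maf was lower. Of the 7 interstitial genes outside the rule that reached 20 CPM, 1 (Wnt5a) was at least 2-fold higher in all 4 libraries. Another 1, which was not Maf, was at least 2-fold lower in all 4. At least 3 UMIs of an endothelial, immune or erythroid list were found in 2, 8, 13 and 6 members.

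The members were set against the other gonadal somatic cells of the same libraries, which were every cell within the quality limits that was not a member and did not carry endothelial, immune, erythroid or germ cell markers. Genes such as Tm4sf5, Myl7 and Krt7 stood higher in the members, and genes such as Cpa1, Kctd14 and Runx1 stood lower. Of 5212 genes with at least 20 CPM in the higher sum of every library, 30 (0.576%) were at least 2-fold higher in the members in all 4 libraries and 88 (1.69%) were at least 2-fold lower. The members were selected on these same counts, so this contrast is a description without a test.

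Tm4sf5, a 4-transmembrane surface protein (chr11:70505244-70511178), stood at 272, 241, 323 and 311 CPM in the members and 30.8, 30.9, 40.2 and 31.4 CPM in the other cells, a log2 ratio of 2.93 ± 0.15 (SD, n = 4 libraries). Myl7, the atrial myosin light chain, followed with 283, 328, 807 and 415 CPM against 53.7, 56.7, 110 and 66.2 CPM. Its level was highest in the first XY library and every member value exceeded every value of the other cells. Hpgd, which degrades prostaglandins, stood at 203, 131, 172 and 93.8 CPM against 24.5, 15.9, 29.2 and 15.4 CPM. Krt7 (chr15:101411043-101430313) stood at 121, 105, 145 and 100 CPM against 26.8, 19.8, 22.5 and 19 CPM. These genes kept a narrow range of ratios over 4 embryos of both sexes. Stk26, a germinal centre kinase, had the steadiest ratio of the named genes after Gadd45b, at 2.09 ± 0.05, with 124, 123, 94.2 and 123 CPM in the members. The transmembrane genes Tmem151a (ratio 2.22 ± 0.06), Tmem108 (2.14 ± 0.25) and Aplp1 (1.90 ± 0.15), the proteoglycan gene Dcn (2.39 ± 0.40), and Lrrn4 (1.98 ± 0.21) were also among the 15 that ranked highest. The remaining ones were Myrf, a membrane-bound transcription factor (1.83 ± 0.24), the calcium-binding S100a6 (1.76 ± 0.24), the adhesion molecule Alcam (1.58 ± 0.14), Crabp2, which carries retinoic acid to the nucleus (1.57 ± 0.07), and Gadd45b (1.39 ± 0.04).

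**Figure D1:**
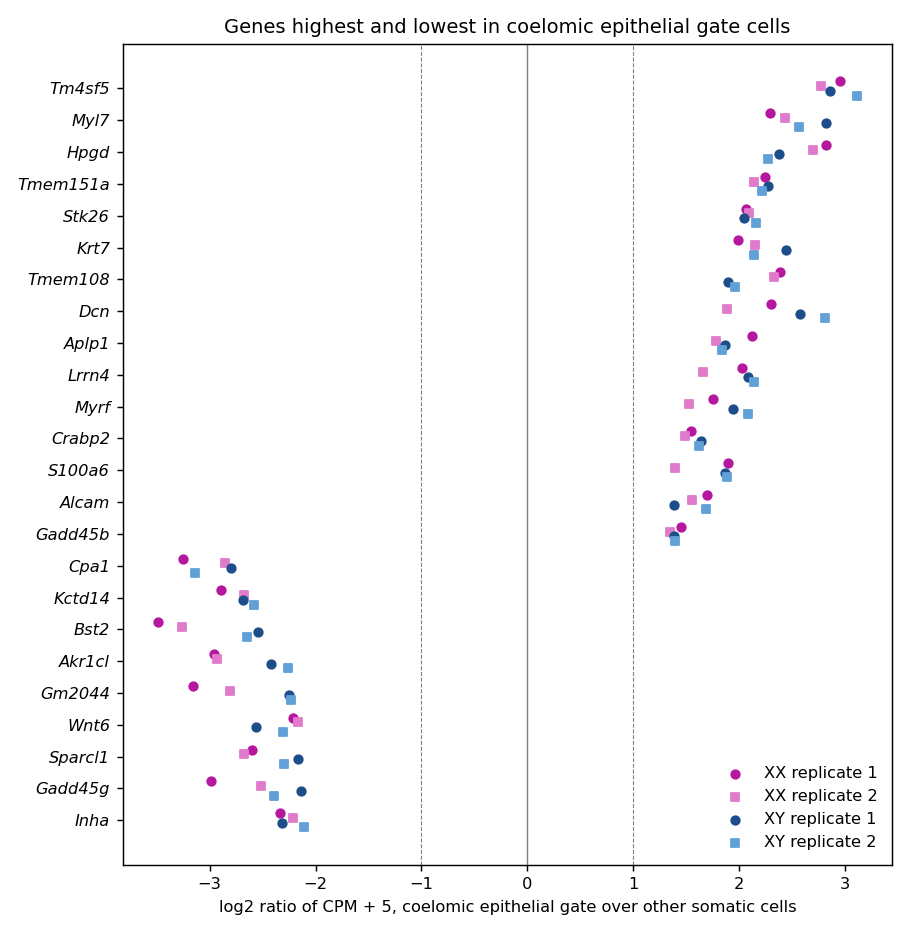
Log2 ratio of the level in the coelomic epithelial cells to that in the other somatic cells of the same library (x axis, 5 CPM added to each level), for the named genes (y axis), with 1 point for each of the 4 wild-type libraries and dashed lines at -1 and 1. Tm4sf5 and Cpa1 lie at the ends with mean ratios of 2.93 and -3.01, and every library falls beyond the 2-fold line on the same side for each gene.

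The genes with the lowest ratios stood many times higher in the other somatic cells. Kctd14 stood at 374, 384, 274 and 551 CPM in the members and 2806, 2475, 1795 and 3311 CPM in the other somatic cells. Cpa1, a carboxypeptidase gene, stood at 23.8, 24.3, 35.6 and 27.4 CPM against 270.1, 207, 277 and 281 CPM, a log2 ratio of -3.01 ± 0.22 (SD, n = 4). Bst2, which encodes tetherin, stood at 44.8, 38.5, 54.1 and 46.5 CPM against 555, 413, 339 and 317 CPM. No member value of these 3 genes reached any value of the other cells. Inha, the inhibin alpha subunit, stood at 12.3, 13.5, 17.8 and 27.4 CPM against 82.2, 80.7, 109 and 135 CPM. The aldo-keto reductase gene Akr1cl (ratio -2.64 ± 0.35), Gm2044 (-2.61 ± 0.45), Gadd45g (-2.51 ± 0.35), Sparcl1 (-2.44 ± 0.24) and Wnt6 (-2.31 ± 0.18) were also among the 10 genes that ranked lowest.

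Several genes known from the pre-supporting stage were low. Of 6 genes listed, 4 reached the 20 CPM limit, and of these the transcription factor gene Runx1, Gadd45g and Wnt6 were at least 2-fold lower in all 4 libraries. Runx1 stood at 24, 33.2, 7.41 and 14.2 CPM in the members and 111, 124, 28.9 and 65.3 CPM in the other cells. The list summed to 233, 253, 176 and 223 CPM in the members against 1623, 1371, 808 and 1099.6 CPM. Sry, the testis-determining gene, was at 0 UMIs in the members of all 4 libraries and at 0.346 and 0.964 CPM in the other XY cells. It was thus not detected among the 13633258 and 7869873 UMIs summed over the XY members. The factors of the early gonad were spread on both sides of equality. Gata4, needed to start the genital ridge, stood at 64.8, 72.4, 64.3 and 68.2 CPM against 101, 103, 96.8 and 132 CPM. Nr5a1, which encodes steroidogenic factor 1, stood at 24.8, 24.8, 17.2 and 28.2 CPM against 38.0, 38.3, 44.6 and 65.2 CPM. The homeobox gene Emx2 was level in the XX libraries (213 and 222 CPM against 213 and 225 CPM) and higher in the XY members (log2 ratios of 0.99 and 0.64). Of the 16 genes of this list 10 reached 20 CPM, none of these was 2-fold apart in all 4 libraries and the median ratio was 0.07, beside 0.02 over all genes tested.

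Of 22 junction and polarity genes, 7 reached 20 CPM in every library and could pass the 2-fold limit. Of these, Ezr (ezrin, which ties the apical membrane to actin) and Cdh3 (P-cadherin) were at least 2-fold higher in all 4 libraries and none was lower, and the median ratio over the list was 0.03. Ezr stood at 78.2, 91.6, 118 and 133 CPM in the members and 29.1, 29.5, 28.3 and 36.8 CPM in the other cells. Cdh3 stood at 45.7, 48.8, 47.4 and 61.4 CPM against 16, 18.3, 16.1 and 22.4 CPM. The polarity gene Crb2 and the claudin gene Cldn15 had ratios between 1.17 and 1.59 and between 1.07 and 1.78 at member levels of no more than 18.5 CPM. E-cadherin (Cdh1) was read at no more than 0.220 CPM, and the tight junction genes Ocln, Cldn3, Cldn4 and Cldn7 at no more than 0.381 CPM. E-cadherin was thus almost unread in the members, whereas P-cadherin was read in every library.

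Of 17 basement membrane genes, 5 reached 20 CPM, of which 1 was at least 2-fold lower in all 4 libraries and none higher, and the median ratio was -0.07. The basement membrane protein gene Nid2 stood at 23.8, 22.8, 12.5 and 22.5 CPM in the members and 5.61, 9.25, 3.54 and 4.80 CPM in the other cells, with ratios from 0.97 to 1.49. Fn1 (fibronectin) had ratios of 1.03, 0.84, 1.27 and 1.37, so neither passed the limit. Itga6, the laminin receptor subunit, was at least 2-fold lower in all 4 libraries, at 33.0, 45.2, 12 and 22 CPM against 112, 118, 34.5 and 83.7 CPM. Vim (vimentin) stood at 683, 586, 859 and 833 CPM against 1331, 1102, 1915 and 1800 CPM.

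In the signalling lists, Wnt5a was the only ligand gene at 20 CPM that was at least 2-fold higher in all 4 libraries. It was at 83.1, 82.9, 108 and 107 CPM in the members and 34.2, 37.8, 36.6 and 30.6 CPM in the other cells. Those of the other cells with at least 2 Pdgfra UMIs and no Upk3b UMI read Wnt5a at 69.6, 72.7, 48.8 and 62.6 CPM. The gap to these cells was thus smaller. Wnt6 and Wnt4 were at least 2-fold lower in all 4 libraries, so of the 18 genes of the WNT and R-spondin list, of which 7 reached 20 CPM, 3 passed the 2-fold limit. Nkd1, a WNT feedback inhibitor, had ratios of 0.85, 0.60, 1.43 and 1.43, and Sp5, a WNT target, of 1.01, 0.97, 1.36 and 1.84. The retinoic acid list of 12 genes, of which 3 reached 20 CPM, held Crabp2 as its only gene outside the rule that passed the limit in all 4 libraries. Id1, Id2 and Id3, targets of BMP signalling, had ratios between 0.26 and 1.10 without passing it. None of the 3 Notch genes and 5 BMP and TGF-beta genes that reached 20 CPM did so, of 13 and 16 listed. None of the 13 FGF genes reached 20 CPM in every library, so none could pass.

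The members carried more transcripts of cell division genes than the other somatic cells. The 16 mitosis genes (Mki67, Top2a, Ube2c and others) summed to 3184, 2638, 3296 and 3058 CPM in the members and to 1023, 1008, 2260 and 1719 CPM in the other somatic cells. Each library had the higher sum in its members. Top2a, the topoisomerase of chromosome condensation, stood at 319, 303, 268 and 355 CPM in the members and 94.9, 112, 185 and 187 CPM in the other cells. The 16 S phase genes (the Mcm helicase genes, Pcna, Rrm2 and others) summed to 1680.1, 1744, 1736 and 1760 CPM in the members and to 994, 992, 1436 and 1350.4 CPM in the others. Other somatic cells without Upk3b UMIs were also gated by marker, and cells with at least 5 UMIs of Fst, a pre-granulosa marker, had a mitosis sum of 199.5 and 275 CPM in the XX libraries. Cells with at least 5 UMIs of Sox9 and Amh together had 1521 and 999 CPM in the XY libraries. Cells with at least 2 Pdgfra UMIs stood at 1935, 1819, 3203 and 2902 CPM and endothelial cells at 2794, 2155, 3028 and 2694 CPM, so high sums were not particular to the members. In cells thinned to 5000 UMIs, at least 3 mitosis UMIs were read in 68.9%, 69.9%, 82.0% and 71.7% of the members and in 19.2%, 19.8%, 49.7% and 38.0% of the other cells. These members were chosen by their counts before thinning. They had more UMIs per cell than the other cells, and the part of that depth was not tested.

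The cell cycle sums of XX and XY members overlapped. Both lists together summed to 4623 ± 341 CPM (SD, n = 2) in XX members and 4925 ± 151 CPM in XY members. The difference of -302 CPM gave p = 0.667 in an exact two-sided permutation test, which with 2 libraries a group cannot go under 0.333. None of the 32 genes differed between XX and XY members by edgeR's quasi-likelihood test at an adjusted p of 0.05. For Mki67 the log2 difference was -0.04 (95% interval -0.52 to 0.44), and for Top2a -0.05 (-0.33 to 0.24).

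**Figure D2:**
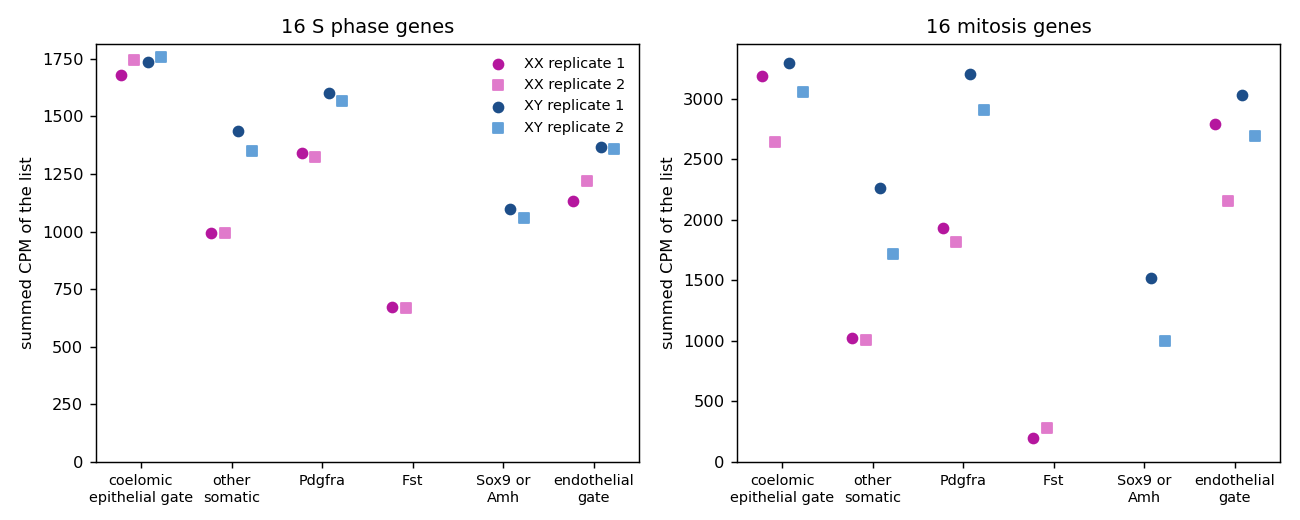
Summed level of 16 mitosis genes and of 16 S phase genes (y axis, CPM) in each wild-type library for the coelomic epithelial cells, the other somatic cells and the gates named on the x axis, with 1 point a library. Fst cells are drawn for the XX libraries only and Sox9 or Amh cells for the XY libraries only. The members reach 2638 to 3296 CPM for mitosis genes, against 199.5 and 275 CPM in the Fst cells.

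The members were also divided by their Upk3b level. Upk3b and Krt19 selected the cells, and members with less Upk3b lie nearest to the threshold of the rule, so likeness to the cells outside it is built into this division. Cells were thinned to 5000 UMIs and those with at least 4 Upk3b UMIs (61, 74, 86 and 48 cells) were set against those with at most 1 (366, 439, 432 and 254 cells), as a description without a test. Cells with more Upk3b had more Upk1b, at 29.5, 24.3, 81.4 and 41.7 CPM against 8.74, 6.83, 41.7 and 15 CPM. They also had more Krt19, with log2 ratios from 0.44 to 1.13, and more of the cadherin gene Cdh11, from 0.56 to 1.22. Cells with less Upk3b had more of the genes that marked the other somatic cells. Before thinning they were also deeper, with medians of 15615.5, 19741, 14573 and 16292 UMIs. Those with more Upk3b had 11086, 15151, 10454.5 and 11519.5 UMIs, and the part of this depth was not tested. Kctd14 stood at 98.4, 132, 67.4 and 91.7 CPM in the cells with more Upk3b and 445, 338, 239.8 and 422 CPM in those with less. Wnt6 and Gadd45g followed the same order in all 4 libraries, with ratios from -2.02 to -1.04 and from -2.14 to -1.11. Lhx9 did not follow it, with ratios between -0.20 and 0.28. Setting members with Krt19 against those without it (165, 191, 135 and 49 cells with a UMI after thinning), Itm2a, a membrane protein gene, stood at 371, 484, 342 and 294 CPM against 223, 212, 203 and 166 CPM. Correlations between marker genes over the cells of a library were weak throughout, the lowest being -0.26 for Krt19 with Lhx9, and nothing is read from them.

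The share of members among gonadal somatic cells was similar in the 4 libraries but lower in 1 XY library. It was 12.3% (712 of 5806 cells, 95% Wilson interval 11.4% to 13.1%) and 11.6% (727 of 6245, 10.9% to 12.5%) in the XX libraries. In the XY libraries it was 12.5% (909 of 7250, 11.8% to 13.3%) and 9.38% (462 of 4926, 8.60% to 10.2%). The intervals cover counting error only, and those of the XY libraries did not overlap each other. The XX mean was 11.95 ± 0.44% and the XY mean 10.96 ± 2.23% (SD, n = 2), a difference of 0.994 percentage points with p = 1 in the exact two-sided permutation test. Without the second XY library the sign turned, to -0.586 points. When the rule was applied to cells thinned to 5000 UMIs, the shares were 5.98%, 5.16%, 6.02% and 3.94%, in the same order.

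XX and XY members were then compared to ask how far the sexes had already diverged in this layer at E12. The libraries matched their labels: Xist stood at 557 and 608 CPM in XX members and at 0 and 0.254 CPM in XY members. The Y-linked genes Ddx3y and Eif2s3y stood at 0 in both XX libraries and at 35.5 and 41.2 CPM and 57.7 and 56.7 CPM in the XY libraries. Of 14182 genes tested, 602 (4.24%) differed at an adjusted p of 0.05 in edgeR (quasi-likelihood, p adjusted after Benjamini and Hochberg). Of these, 203 (1.43%) were higher in XX and 399 (2.81%) higher in XY, and 2121 genes lay at an unadjusted p under 0.05. Both shares are the background of the list counts below. The X and Y chromosomes held 25 of the 602. Their share of all genes tested was not counted. Of the 602, 427 also differed between XX and XY in the other somatic cells by the same test, all in the same direction. Most of these differences were thus also found outside this layer. The share of all genes called in the other somatic cells is not given here. For 189 of the 602 the sex difference itself differed from that in the other somatic cells, beside 12% of the 16817 genes tested for this below. All 602 had XX and XY values that did not overlap, as did 45.4% of all genes tested. The count rested on every library: it was 191 without the first XX library, 136 without the second, 158 without the first XY library and 390 without the second. With the rule applied to thinned cells it was 265. Of the 602 genes, 233 (125 higher in XX, 108 higher in XY) were over 2 times as high in the members as in endothelial cells in both libraries of the higher sex, a limit chosen after the values were seen.

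The genes highest in XX over XY members included signalling, junction and protease inhibitor genes. 6330411D24Rik (chr4:142598441-143074839, minus strand) stood at 54.5 and 72.1 CPM in XX and 9.61 and 11.1 CPM in XY members, a log2 difference of 2.56 ± 0.16 (SE) with an adjusted p of 1.31e-05. Vsnl1, a neuronal calcium sensor gene, stood at 20.7 and 23.2 CPM against 1.61 and 2.29 CPM (3.47 ± 0.46, adjusted p = 0.00176). Cgn, which encodes the tight junction protein cingulin, stood at 22.8 and 30 CPM against 3.67 and 5.97 CPM (2.44 ± 0.22, adjusted p = 0.000159). These 3 kept their calls whichever WT library was left out, with adjusted p up to 0.0456. Endothelial cells read them at no more than 21, 1.64 and 10.5 CPM, well under the XX members. Serpina3a, a serine protease inhibitor gene (chr12:104112724-104121896), stood at 124 and 128 CPM against 17.6 and 27.4 CPM (2.45 ± 0.41, adjusted p = 0.007), and at 20.2 and 9.53 CPM in XX endothelial cells. Rassf10, Adamts19 (a secreted metalloproteinase) and Ppp4r4 (a phosphatase subunit) had log2 differences of 2.37 ± 0.39, 3.19 ± 0.54 and 2.55 ± 0.47. Without the first XY library the adjusted p of Serpina3a rose to 0.103, that of Rassf10 to 0.0744, that of Adamts19 to 0.0771 and that of Ppp4r4 to 0.157. Rassf10 (0.0595), Adamts19 (0.0501) and Ppp4r4 (0.0704) also lost their calls without the second XX library, and Adamts19 (0.0554) without the second XY library. The cell cycle inhibitor gene Cdkn1a (44.3 and 16.8 against 2.79 and 5.34 CPM, adjusted p = 0.0466) lost its call without any 1 of the 4 libraries, with adjusted p from 0.0556 to 0.389. XX endothelial cells read Cdkn1a at 31.8 and 11.7 CPM.

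Fst and Wnt4, which pre-granulosa cells express strongly, also differed, and XX endothelial cells read both. Fst, which encodes follistatin, stood at 40.1 and 68.4 CPM in XX members and 0.0733 and 1.27 CPM in XY members (log2 difference 6.59 ± 1.01, adjusted p = 0.00426). Endothelial cells of the XX libraries read it at 76.5 and 71.3 CPM, above the members, so expression by the members is not read from it. The log2 difference of Fst was 4.99 with the highest doublet scores removed and 11.1 with the rule applied to thinned cells. Wnt4 stood at 65.5 and 114 CPM against 9.98 and 15.8 CPM (2.77 ± 0.56, adjusted p = 0.0169), with 41.3 and 64.6 CPM in XX endothelial cells. The call of Fst was lost without the first XY library (adjusted p = 0.0741). That of Wnt4 was lost without the second XX library (0.122), the first XY library (0.207) or the second XY library (0.0736).

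The genes highest in XY over XX members included genes that Sertoli cells express, and endothelial cells of the XY libraries carried most of them too. Spp1 (osteopontin) stood at 54.0 and 74.2 CPM in XY and 3.08 and 2.57 CPM in XX members, and at 55.9 and 132 CPM in XY endothelial cells. Cst9, a cystatin gene, stood at 61.3 and 62 CPM against 2.17 and 1.54 CPM, with 38.7 and 102 CPM in XY endothelial cells. Tesc (tescalcin) stood at 46.3 and 38.6 CPM against 1.58 and 2.44 CPM, with 40.1 and 46.0 CPM in XY endothelial cells. The XY members lay under the endothelial cells in both libraries for Spp1, and in the second library for Cst9 and Tesc. Amh, the anti-Müllerian hormone gene, stood at 35.5 and 15.6 CPM against 0.167 and 0.257 CPM, with 20.4 and 11 CPM in XY endothelial cells. Ptgds, which makes prostaglandin D2, stood at 61.4 and 21.9 CPM against 0.417 and 1.67 CPM, with 31.3 and 20.3 CPM in XY endothelial cells. Gstm6 and the renin gene Ren1 were, like Amh and Ptgds, above the endothelial level in both XY libraries but by less than 2 times. The adjusted p of these 7 genes ran from 1.54e-05 to 0.00917, and Ptgds and Ren1 lost their calls without either XX library or without the first XY library (adjusted p from 0.0543 to 0.11).

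Cbln1 and Gm2694 stood over 2 times above the endothelial level in both XY libraries, and Hsd11b2 in 1 of them. Cbln1, a cerebellin gene (chr8:87468405-87472609, minus strand), stood at 47.9 and 46.4 CPM in XY and 2.25 and 1.93 CPM in XX members (log2 difference -4.56 ± 0.49, adjusted p = 0.000565), and at 14.5 and 9.53 CPM in XY endothelial cells. Gm2694 (chr8:87460469-87525554, plus strand) spans Cbln1 on the other strand and stood at 127 and 88.6 CPM against 5.0 and 4.81 CPM, with 27.5 and 18.0 CPM in XY endothelial cells. Whether the counting used strand is not given in the sources used here, so the pair cannot be fully told apart. Hsd11b2, which inactivates glucocorticoids, stood at 140.3 and 41.9 CPM against 6.0 and 3.79 CPM, with 60.5 and 28.0 CPM in XY endothelial cells. All 3 kept their calls whichever WT library was left out.

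**Figure D3:**
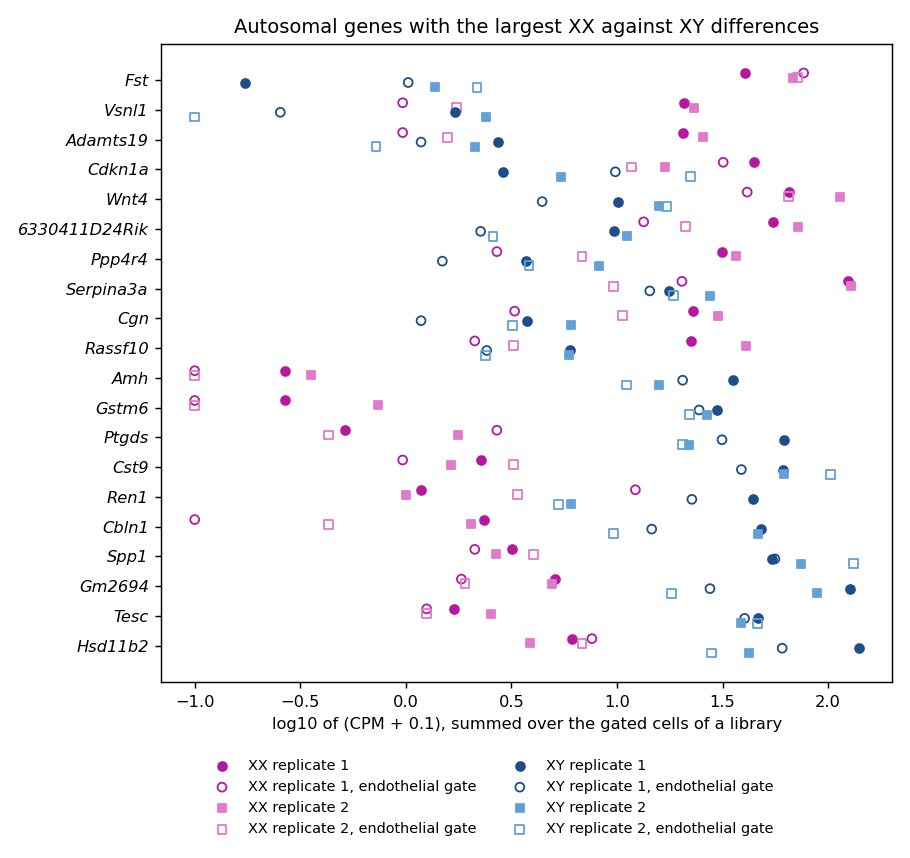
Level of the genes that differed most between XX and XY coelomic epithelial cells (x axis, log10 of CPM + 0.1; genes on the y axis), with filled points for the members and open points for endothelial cells of the same libraries. Serpina3a reaches 124 and 128 CPM in XX members and 20.2 and 9.53 CPM in XX endothelial cells, whereas Spp1 is as high in XY endothelial cells (55.9 and 132 CPM) as in XY members.

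The genes called in each supporting cell list were higher in 1 sex only. Of 13 Sertoli genes tested, 8 were higher in XY members and none in XX. Sox9, the Sertoli transcription factor, stood at 37.5 and 55.1 CPM in XY and 1.92 and 5.58 CPM in XX members (log2 difference -3.63 ± 0.45, adjusted p = 0.00128). XY endothelial cells read Sox9 at 23.2 and 51.0 CPM, and none of the 8 genes (Sox9, Amh, Dhh, Aard, Ptgds, Mro, Cst9 and Cbln4) was over 2 times its endothelial level in both XY libraries. Their levels in the members were also lower than in the other somatic cells of the XY libraries, where Sox9 stood at 179 and 272 CPM. With the rule applied to thinned cells, the adjusted p of Aard rose to 0.791, that of Mro to 0.208 and that of Ptgds to 0.093. With the highest doublet scores removed, Aard (0.149) and Cbln4 (0.0587) also lost their calls. Of 12 pre-granulosa genes tested, 6 were higher in XX members (Fst, Kitl, Wnt4, Lef1, Axin2 and Cdkn1b) and none in XY. Foxl2, the ovarian forkhead factor, stood at 1.33 and 3.08 CPM in XX and 0.293 and 0.127 CPM in XY members (adjusted p = 0.106). Of the 5 pre-supporting genes tested, Runx1 (24 and 33.2 against 7.41 and 14.2 CPM, adjusted p = 0.0123) and Sprr2d (10.8 and 8.92 CPM in XX members) were higher in XX. XX endothelial cells read Sprr2d at 11.3 and 6.73 CPM, near the XX members. XX endothelial cells read Kitl, the KIT ligand gene, at 161 and 189 CPM, above the 96.1 and 150 CPM of the XX members, and Kitl lost its call without any 1 library (adjusted p from 0.0724 to 0.377). Endothelial cells read Runx1 at 9.53 and 10.8 CPM in XX and 4.32 and 10.8 CPM in XY. Runx1 lost its call without the second XX library (0.12) or the first XY library (0.136), and Sprr2d without the first (0.129) or the second XY library (0.0558). The median log2 difference was -3.71 over the Sertoli list and 1.82 over the pre-granulosa list, beside 0.01 over all genes tested. The background of called genes was 2.81% for the first direction and 1.43% for the second.

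Of 14 factors of the early gonad tested, 2 differed between XX and XY members. Emx2 was higher in XX, at 213 and 222 CPM against 101 and 141 CPM (log2 difference 0.80 ± 0.16, adjusted p = 0.0183). Tcf21, a basic helix-loop-helix factor of gonadal mesenchyme, was higher in XY, at 873 and 667 CPM against 279 and 99.6 CPM (-2.08 ± 0.47, adjusted p = 0.0282). XX endothelial cells read Emx2 at 16.5 and 31.5 CPM, and XY endothelial cells read Tcf21 at 101 and 59.9 CPM. The XX libraries lay far apart for Tcf21, and its call was lost without the second XX library (0.179), the first XY library (0.207) or the second XY library (0.0554). Emx2 lost its call without either XX library (0.0997 and 0.131) or without the first XY library (0.213). For Gata4 the log2 difference was -0.01 (95% interval -0.33 to 0.32), for Nr5a1 0.10 (-0.38 to 0.58) and for Wt1 0.17 (-0.12 to 0.46).

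In the WNT and R-spondin list, 5 genes were higher in XX members and 1 in XY members, beside 1.43% and 2.81% of all genes tested. In canonical WNT signalling, beta-catenin joins TCF and LEF factors on DNA and turns on feedback genes such as Axin2, Sp5 and Rnf43. Of the 18 genes tested, those higher in XX were Sp5, Axin2, Lef1, Wnt4 and Rnf43, and Dkk1 was higher in XY. The pathway genes Nkd1, Tcf7 and Znrf3 did not pass (adjusted p = 0.898, 0.75 and 0.854). Sp5, a zinc finger factor and WNT target (chr2:70474923-70477729, plus strand), stood at 111 and 116 CPM in XX and 15.8 and 31.8 CPM in XY members (log2 difference 2.23 ± 0.48, adjusted p = 0.0235). Endothelial cells read Sp5 at no more than 5.75 CPM. Axin2 stood at 27.3 and 40.4 CPM against 8.66 and 13.7 CPM (1.57 ± 0.29, adjusted p = 0.0119), and Lef1 at 51.3 and 61.2 CPM against 16.1 and 31.8 CPM (1.21 ± 0.26, adjusted p = 0.0239). XX and XY values of these 3 genes did not overlap, as was so for all 602 called genes and for 45.4% of all genes tested. In XX endothelial cells Lef1 stood at 17.6 and 21 CPM and Axin2 at 3.18 and 7.06 CPM. Dkk1, a secreted WNT antagonist (chr19:30545863-30549665, minus strand), stood at 78.3 and 84.9 CPM in XY and 3.58 and 7.19 CPM in XX members (-3.95 ± 0.47, adjusted p = 0.00102), with 9.57 and 12.6 CPM in XY endothelial cells. The ligand gene Wnt4 passed, as given above, whereas the potentiator gene Rspo1 and the ligand genes Wnt6 and Wnt5a did not. Rspo1 stood at 139.8 and 121 CPM in XX and 92.5 and 85.4 CPM in XY members (log2 difference 0.49, 95% interval 0.08 to 0.90, adjusted p = 0.285). Wnt6 stood at 76.1 and 94.8 CPM against 40.4 and 53.6 CPM (adjusted p = 0.0756) and Wnt5a at 83.1 and 82.9 CPM against 108 and 107 CPM (adjusted p = 0.669). Dkk1 kept its call whichever WT library was left out, with adjusted p up to 0.0185. Sp5 lost its call without any 1 of them (0.0508 to 0.257), Lef1 and Rnf43 without all but the second XY library (up to 0.218 and 0.439), and Axin2 without the second XX library (0.116) or the first XY library (0.165).

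The 250 bases before the Sp5 start are shown because Sp5 is a WNT target that differed between XX and XY members and because TCF and LEF factors bind a short core. The sequence is from RefSeq for GRCm38.p6, chr2:70474673-70474922, plus strand, with the core CTTTGAT in capitals.
Sp5 promoter: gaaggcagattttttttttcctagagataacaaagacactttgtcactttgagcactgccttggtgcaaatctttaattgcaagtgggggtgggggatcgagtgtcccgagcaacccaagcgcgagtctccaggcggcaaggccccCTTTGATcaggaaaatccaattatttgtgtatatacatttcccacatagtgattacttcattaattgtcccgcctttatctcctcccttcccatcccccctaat
The core, searched on both strands as CTTTGAT and ATCAAAG, occurred once here and in 1053 of 32851 such promoter windows (3.21%). Of the 5 genes of the list that were higher in XX members, Sp5 alone held it in this window. The match is a description of these letters and not of binding.

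In the FGF list, 6 genes were higher in XY members and 1 in XX members, beside 2.81% and 1.43% of all genes tested. FGF receptors signal through the ERK cascade, which induces the Sprouty genes, the phosphatase gene Dusp6 and the ETS factor Etv4 as feedback and output. Of 12 FGF genes tested, those higher in XY were Spry1, Spry2, Spry4, Dusp6, Etv4 and Fgfr1, and Fgfr2 was higher in XX. Etv5, a relative of Etv4, stood at 10.3 and 16.9 CPM in XY and 5.58 and 5.07 CPM in XX members and did not pass (adjusted p = 0.0777). Spry1 (chr3:37639947-37644598) stood at 40.0 and 33.4 CPM in XY and 7.08 and 5.20 CPM in XX members (log2 difference -2.65 ± 0.30, adjusted p = 0.000697). Dusp6 stood at 37.2 and 42.8 CPM against 4.42 and 8.41 CPM (-2.68 ± 0.39, adjusted p = 0.0032), and Etv4 at 26.7 and 28.3 CPM against 4.42 and 3.91 CPM (-2.78 ± 0.44, adjusted p = 0.00529). XY endothelial cells read Etv4 at 20.1 and 20.9 CPM and XX endothelial cells at 6.93 and 7.23 CPM, so the XY members stood less than 2 times above the endothelial level. Endothelial cells expressed Spry1, Spry4 and Dusp6 themselves in both sexes (Dusp6 at 60.9 and 54.2 CPM in XX and 58.8 and 75.2 CPM in XY). Fgfr2, the receptor of FGF9 in the testis, stood at 39.3 and 47.4 CPM in XX and 13.9 and 18.6 CPM in XY members (1.38 ± 0.20, adjusted p = 0.00298), and Fgfr1 at 14.9 and 15.3 CPM against 30.1 and 30.8 CPM (-1.07 ± 0.20, adjusted p = 0.0124), with 23.8 and 31.9 CPM in XY endothelial cells. The receptor genes thus changed in opposite directions. Fgf9 itself stood at 6.50 and 10.5 CPM in XX and 11.1 and 10.9 CPM in XY members (adjusted p = 0.747, 95% interval of the log2 difference -1.26 to 0.40). Spry1, Spry4 and Dusp6 kept their calls whichever WT library was left out. Etv4 lost it without the second XX library (0.0736), Fgfr2 without the first XY library (0.0539), Fgfr1 without all but the second XY library (up to 0.112), and Spry2 without any 1 library (0.067 to 0.168).

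**Figure D4:**
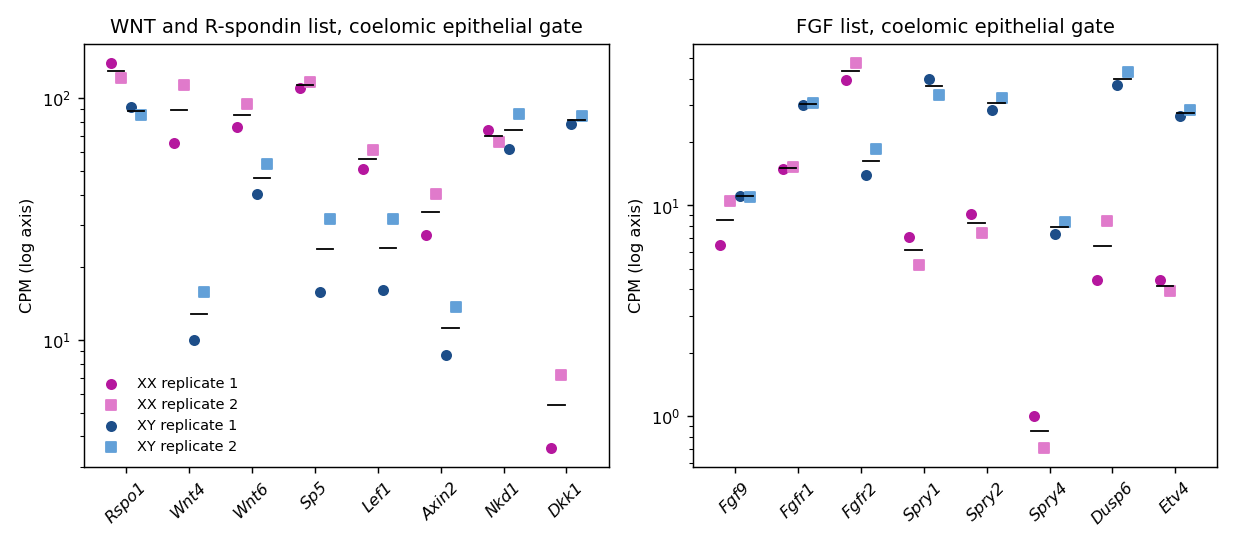
Level of WNT and FGF pathway genes (y axis, CPM on a log scale) in XX and XY coelomic epithelial cells, with 1 point for each of the 4 wild-type libraries and black lines at group means. Sp5 lies at 111 and 116 CPM in XX and 15.8 and 31.8 CPM in XY, and Spry1 at 7.08 and 5.20 CPM in XX and 40.0 and 33.4 CPM in XY.

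Notch and BMP genes with a difference were higher in XY members. Hes1, a transcriptional repressor and Notch target, stood at 119 and 93.4 CPM in XY and 29.3 and 25.1 CPM in XX members (log2 difference -2.03 ± 0.23, adjusted p = 0.000737) and kept its call whichever WT library was left out. Endothelial cells read Hes1 at 78.5 and 61.1 CPM in XX and 76.7 and 99.1 CPM in XY, so the XY members lay under them in the second library. Heyl, another such target, was also higher in XY, at no more than 3.37 CPM (adjusted p = 0.00547) and with 1.39 and 3.11 CPM in XY endothelial cells, and these were the only 2 of 11 Notch genes tested that passed. Bmp4, a ligand gene, stood at 27.9 and 18.2 CPM in XY and 6.58 and 6.67 CPM in XX members (-1.88 ± 0.33, adjusted p = 0.00873), and endothelial cells read it at no more than 6.24 CPM. Tgfb1 stood at 9.90 and 8.77 CPM against 1.92 and 3.14 CPM (adjusted p = 0.0139), and endothelial cells expressed it at 147 to 173 CPM in both sexes. These were the 2 of 15 BMP and TGF-beta genes that passed. The BMP targets Id1, Id2 and Id3 had adjusted p of 0.713, 0.353 and 0.747. Bmp2 was higher in each XX library, at 24.9 and 36.6 CPM against 8.44 and 9.53 CPM, with an adjusted p of 0.0523. Bmp4 lost its call without either XX library (0.0718 and 0.09) or the first XY library (0.106), Tgfb1 without the same libraries (0.0635 to 0.129), and Heyl without the first XX (0.0593) or the first XY library (0.0696).

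In the retinoic acid list 1 gene was higher in each sex. Crabp2 stood at 117 and 111 CPM in XX and 53.8 and 41.0 CPM in XY members (log2 difference 1.20 ± 0.24, adjusted p = 0.0152). Cyp26b1, the enzyme that degrades retinoic acid in the fetal testis, stood at 0.583 and 1.67 CPM in XX and 6.01 and 9.15 CPM in XY members (-2.73 ± 0.46, adjusted p = 0.00734), with 7.41 and 14.3 CPM in XY endothelial cells, which is above the members. Endothelial cells read Crabp2 at no more than 3.11 CPM. These were 2 of 10 genes tested. Crabp2 lost its call without all but the first XY library (0.0803 to 0.119) and Cyp26b1 without the first XX library (0.0607). The call of Cyp26b1 was also lost with the highest doublet scores removed (0.0723) and, with a log2 difference of -0.16, with the rule applied to thinned cells (0.969).

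The cell cycle inhibitor genes that passed the test were higher in XX members. Cdkn1c, which encodes p57, stood at 643 and 796 CPM in XX and 342 and 389 CPM in XY members (log2 difference 0.92 ± 0.18, adjusted p = 0.0152). Cdkn1b, which encodes p27, stood at 32.4 and 44.0 CPM against 21.3 and 25.2 CPM (0.67 ± 0.15, adjusted p = 0.0327). With Cdkn1a they made 3 of 8 tested. In XX endothelial cells Cdkn1c stood at 777 and 895 CPM and Cdkn1b at 31.2 and 50.8 CPM, close to the XX members. The call of Cdkn1c was lost without any 1 library (0.0543 to 0.157) and that of Cdkn1b without all but the first XX library (0.099 to 0.328).

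Adhesion, matrix and migration genes differed in both directions. Among 16 junction and polarity genes tested, Cgn and Podxl (podocalyxin, 137 and 145 against 64.3 and 94.9 CPM, adjusted p = 0.0304) were higher in XX and Ezr (78.2 and 91.6 against 118 and 133 CPM, adjusted p = 0.0493) was higher in XY. Of 10 genes of epithelial to mesenchymal transition, the zinc finger repressor genes Snai1, Snai2 and Zeb2 were higher in XY and none in XX. Snai2 stood at 61.5 and 76.6 CPM in XY and 42.4 and 41.8 CPM in XX members (log2 difference -0.76 ± 0.19, adjusted p = 0.0436). Zeb2 stood at 33.7 and 47.7 CPM against 25.8 and 23.7 CPM (-0.76 ± 0.17, adjusted p = 0.0268), and Snai1 at 5.72 and 5.46 CPM against 1.42 and 2.12 CPM. Endothelial cells of both sexes read Snai1 at 18.4 CPM or more and Zeb2 at 25.2 CPM or more, and they read Podxl at 60.0 and 61.6 CPM in XX and Snai2 at 19 and 25.9 CPM in XY. Vim and Fn1 did not pass (adjusted p = 0.206 and 0.0804). The basement membrane genes Lama4 and Nid1 were higher in XY, 2 of 16 tested, at no more than 15.6 CPM in the members and at 70.1 to 100.3 CPM in endothelial cells. Podxl lost its call without all but the second XY library (up to 0.304), Zeb2 without all but the first XY library (up to 0.234), and Ezr, Snai1, Snai2, Lama4 and Nid1 without any 1 library (up to 0.339).

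The remaining lists gave few differences. Of 12 interstitial genes tested, Tcf21 and the hedgehog effectors Gli1 and Gli2 (no more than 12.1 CPM) were higher in XY, and Dlk1 (373 and 402 against 431 and 300 CPM) did not pass (adjusted p = 0.994). Of 13 immediate early and stress genes, Junb (27.9 and 17.3 in XY against 2.33 and 2.82 CPM in XX, adjusted p = 0.0292) and Ier2 (137 and 105 against 54.4 and 50.1 CPM, adjusted p = 0.034) were higher in XY, and Hspa1a was higher in XX at no more than 3.59 CPM. XY endothelial cells read Junb at 79.3 and 79.0 CPM and Ier2 at 266 and 229 CPM, above the members. Genes of this list can respond to dissociation, whose part was not tested. Among the 4 perivascular genes Rgs5 was higher in XY, at no more than 8.01 CPM and with 9.72 and 16.8 CPM in XY endothelial cells. None of the 9 coelomic epithelium markers tested that the rule did not use passed, Krt7 among them (121 and 105 against 145 and 100 CPM, 95% interval of the log2 difference -0.59 to 0.21, adjusted p = 0.777). Gli2 and Hspa1a lost their calls without any 1 library (up to 0.295), Gli1, Junb and Ier2 without all but the second XY library (up to 0.594), and Rgs5 without all but the first XY library (up to 0.106).

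Changing how the members were defined ended the calls of other named genes. With at least 3 Upk3b UMIs required, 7 of 68 genes called in the text lost their calls. With the highest doublet scores removed 14 of 68 did, and with the rule applied to thinned cells 26 of 66 did, with 0 reversals. Beside those given above, these included Tesc (log2 difference -1.88, adjusted p = 0.187), Lef1 (1.21, 0.101), Emx2 (0.60, 0.129), Runx1 (1.32, 0.0768), Podxl (0.60, 0.144), Cdkn1b (0.45, 0.341) and Cdkn1c (0.75, 0.0544) under the thinned rule. Sp5, Axin2, Dkk1, Spry1, Dusp6, Etv4, Fgfr2, Hes1, Bmp4, Sox9, Cbln1 and Cgn kept their calls under each of these changes.

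The difference between XX and XY members was then set against that in the other somatic cells of the same libraries, which include the Fst cells of XX and the Sox9 or Amh cells of XY gonads. Of 16817 genes tested, 2015 (12%) had a sex difference that itself differed between members and other cells at an adjusted p of 0.05 (edgeR, with the library as a term). The make-up of the other somatic cells differs between the sexes, so a change of cell types and a change within a cell type cannot be told apart in this contrast. Among genes with at least 20 CPM in the higher group, the largest was Fgf9, the ligand that supports testis development (chr14:58070547-58112720, plus strand). In the other cells it stood at 0.899 and 1.66 CPM in XX and 40.5 and 57.2 CPM in XY, while the members held 6.50, 10.5, 11.1 and 10.9 CPM (difference of log2 differences 4.84 ± 0.21, adjusted p = 1.84e-08). XX members thus exceeded the other XX cells, and XX endothelial cells read Fgf9 at 0.289 and 0.164 CPM. The XY endothelial cells read it at 3.86 and 13.5 CPM, near the XY members. Col9a3, Dusp15, Mybl1 and Tent5c had smaller sex differences in the members than in the other cells, where each was higher in XY. Dusp15, a phosphatase gene, stood at 54.7 and 37.7 CPM in the other XY cells and 10.9 and 9.40 CPM in XY members.

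The opposite sign had 2 forms. Bmp4 was higher in XY members only: the other cells held 3.50, 6.56, 4.64 and 4.35 CPM, so the sex difference of -1.88 in the members met one of 0.08 in the others (difference -1.95 ± 0.46, adjusted p = 0.0113). Ndrg1, Gabrb1, Fosb and Frmd6 were higher in XX among the other cells and differed less among the members. Frmd6 stood at 34.0 and 35.2 CPM in the other XX cells, 5.46 and 10.5 CPM in the other XY cells, and 7.92, 11, 8.22 and 7.75 CPM in the members. Hes1 also differed more in the members (-2.03) than in the other cells (-0.94), a difference of -1.08 with an adjusted p of 2.51e-05. Sp5, Axin2, Lef1 and Emx2 went the other way, with sex differences in the members of 2.23, 1.57, 1.21 and 0.80 against 3.66, 2.54, 2.32 and 1.63 in the other cells (adjusted p of the difference from 7.53e-05 to 0.00207). The count was 1355 without the first XX library, 1270 without the second, 969 without the first XY library and 1733 without the second. Without the second XX library the adjusted p was 0.193 for Bmp4, 0.258 for Col9a3 and 0.167 for Fosb, and without the first XY library 0.14 for Bmp4 and 0.499 for Fosb. The other genes given for this contrast kept their calls.

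**Figure D5:**
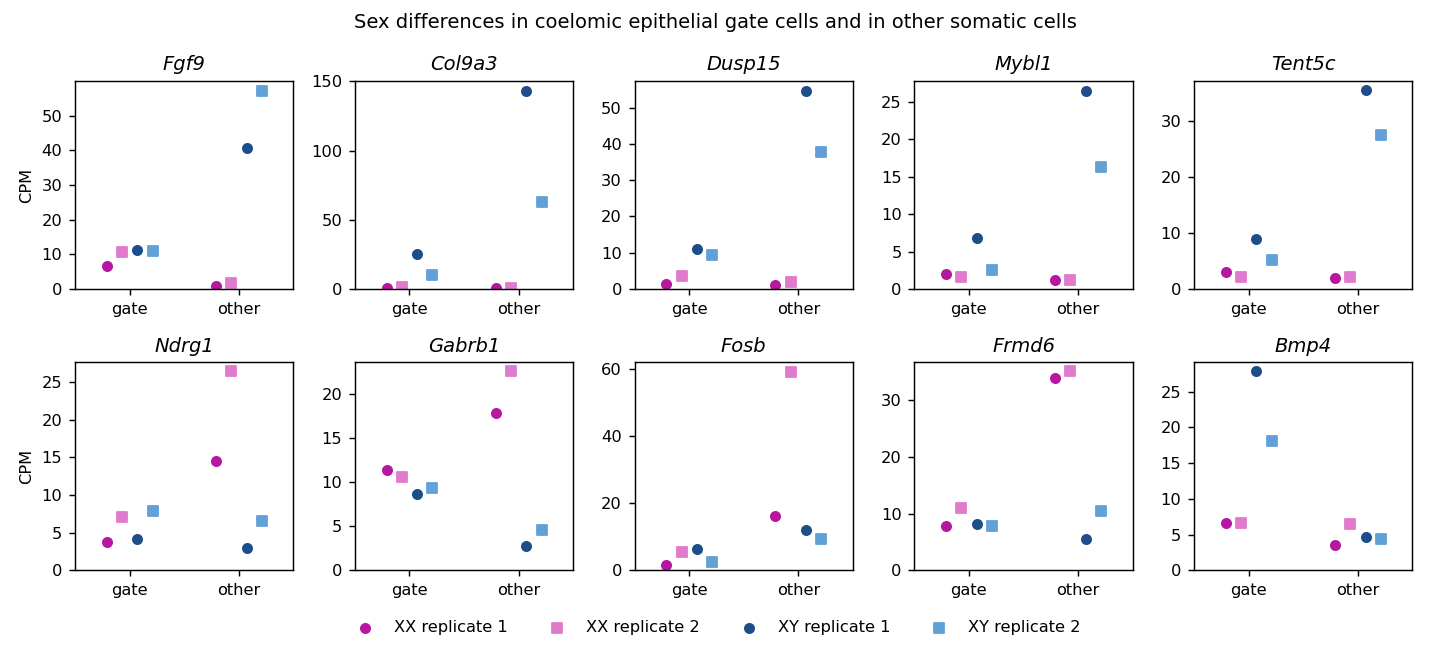
Level of the genes whose XX against XY difference differed most between coelomic epithelial cells and other somatic cells (y axis, CPM on a linear scale from 0, with 1 panel a gene), with 1 point for each of the 4 wild-type libraries in the members (gate) and in the other somatic cells (other) on the x axis. Fgf9 spans 0.899 to 57.2 CPM in the other somatic cells and 6.50 to 11.1 CPM in the members.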

How the data were processed

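The deposited files held raw UMI counts per gene and barcode, as filtered matrices. Per the submitters' processing notes and the study's methods, the authors made them with Cell Ranger 6.0 on the mm10 genome, without normalization. The members and gene lists were chosen with earlier results of these data known. Cells with fewer than 1000 detected genes or over 10% mitochondrial UMIs were left out. Other somatic cells excluded members, cells with 10 or more UMIs of the germ cell list, and cells with 3 or more UMIs of the endothelial, immune or erythroid list. No doublets were removed, and removal of the highest doublet scores (Scanpy 1.11.5) was an alternative.

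UMIs were summed per library, since cells are not replicates, and XX and XY members were compared with edgeR 4.0.16 in R 4.3.3 (quasi-likelihood test, TMM, filterByExpr, all 12 libraries in 6 groups, Benjamini-Hochberg adjustment, threshold 0.05). The difference of differences used 24 sums with the library as a term. The pipeline was tested on simulated data. Each WT library was 1 embryo. The edgeR p-values measure the spread between libraries of 2 a group, pooled over the 6 groups, so the KO libraries share in it. Members against other cells was not tested, since the rule used the same counts. Genes of the rule stayed in the fits, but no p-value is given for them. Shares and summed lists used exact permutation tests.

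Named genes were the genes of the rule, the 15 highest and 10 lowest ratios to the other cells, the 10 largest differences each way between XX and XY off the sex chromosomes with at least 20 CPM and no overlap, sex-linked checks, the genes of each list that differed with up to 4 others, and the 5 largest differences of differences each way under the same limits. A gene that this rule named is not reported here. Itm2a, Cdh11 and some other list members were named after their values were seen. Python 3.11.15 with NumPy 2.4.6, SciPy 1.17.1 and pandas 2.3.3 did the rest, and DESeq2 1.42.0 was an alternative. Gene coordinates came from the GENCODE annotation of GRCm38, with 32235 of 32285 features matched. The promoter came from RefSeq for GRCm38.p6.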

Additional observations from a re-analysis of the deposited data

Results flagged for a closer look

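The sex difference of 50 genes named in the text that did not select the cells differed between the coelomic epithelial cells and the other somatic cells of the same libraries, by edgeR's quasi-likelihood test of that difference (adjusted p under 0.05 for each). Over all genes tested, 2015 of 16817 (12%) passed. The 50 are listed because they passed, and 10 of them were ranked by this test, so their number is not a result. The values are the XX minus XY log2 difference in the members less that in the other cells. Of the 10 genes named by size among those with at least 20 CPM in the higher group, Fgf9 had 4.84, Col9a3 3.23, Dusp15 2.83, Mybl1 2.77 and Tent5c 2.50. On the other side Ndrg1 had -2.27, Gabrb1 -2.24, Fosb -2.20, Frmd6 -1.97 and Bmp4 -1.95.

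Among the other genes named, positive values were found for Adamts19 (1.62), Serpina3a (1.54), Rassf10 (1.58), Gm2694 (1.26), Tesc (1.16), Aard (1.72) and Sox9 (1.51). Negative values were found for Hsd11b2 (-1.29), Hes1 (-1.08), Heyl (-2.68), Junb (-1.69), Ier2 (-0.46) and Spry1 (-0.96), which were higher in XY members. They were also found for genes higher in XX members, which were Sp5 (-1.41), Lef1 (-1.11), Axin2 (-0.98), Emx2 (-0.86), Fgfr2 (-1.04), Podxl (-1.06), Cdkn1b (-1.58) and Cdkn1c (-0.87). The calls of Col9a3, Tesc, Sox9, Spry1 and Gm2694 were lost without the second XX library (adjusted p of 0.258, 0.226, 0.178, 0.233 and 0.0505). That of Aard was lost without the first XX library (0.0698). Those of Fosb, Bmp4, Heyl and Ier2 were lost without any of 2 or 3 libraries, with adjusted p up to 0.499, 0.193, 0.0983 and 0.277.

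The other genes of the 50 did not themselves pass the test between XX and XY members. Among genes of the cell cycle, Rrm2 had 0.91, Ube2c 0.90, Top2a 0.88, Mki67 0.74 and Pcna 0.60. In the other somatic cells these 5 genes were higher in XY, with log2 differences from -1.21 to -0.75, and in the members the differences ran from -0.28 to -0.04. Rspo1 had -1.49, with 217 and 169 CPM in the other XX cells and 37.6 and 57.8 CPM in the other XY cells. Positive values were also found for Nr5a1 (0.69) and Tmem108 (0.55). Negative values were found for Maf (-0.83), Bst2 (-0.81), Gm2044 (-0.80), Nkd1 (-0.80), Akr1cl (-0.63), Id1 (-0.54), Id2 (-0.47), Id3 (-0.32), Wnt5a (-0.45), Myrf (-0.45) and Wt1 (-0.29). Apart from the 5 cell cycle genes and Rspo1, each gene in this paragraph lost its call without at least 1 library, with adjusted p up to 0.486. In all, 27 of the 50 kept their calls whichever WT library was left out.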

How the results depend on the processing

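The count of genes that differed between XX and XY members moved from 602 to 1278 with no filter on low counts, to 265 with the rule applied to thinned cells, and to 233 when genes within 2 times the endothelial level were left out, an alternative chosen after seeing the data. Leaving out 1 WT library gave 136 to 390, with fewer samples and the lone library of its sex assumed to vary like the other groups. It was 721 with DESeq2 and 804 with the WT libraries alone. The count for the difference of differences ran from 969 to 1733 without 1 library, and was 1599 with DESeq2. Genes at least 2-fold higher in the members numbered 46 with no minimum level and 30 to 48 without 1 library, and those lower 92 to 128. The difference in share ran from -0.586 to 2.57 points without 1 library and turned negative without the second XY library; the cause was not tested. The cell cycle difference ran from -543 to -60.5 CPM. Of 814 values of 68 named genes under the alternatives, 639 kept the call, 175 lost it and 0 reversed. With 2 libraries a group the exact tests could not pass 0.05.

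Same-numbered WT libraries did not deviate together (correlation of -0.00041, and -0.177 to 0.205 over the 15 pairs of groups). With 2 libraries a group this cannot show whether same-numbered libraries were handled together, and the main fit used no pairing. With the replicate block in edgeR the sex count was 548. The block ended the calls of 3 of 68 named genes, Cdkn1a (adjusted p = 0.0708), Rnf43 (0.0655) and Gli2 (0.0613).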
